A study of Mus musculus with 4 samples.

Results

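Gadd45a, Gadd45b and Gadd45g are 3 related mouse genes of the growth arrest and DNA damage response. Of the family, 2 of 3 genes were measured, among 6137 genes named on the arrays. They were read by 2 of 13057 probe sets, chosen because the platform annotation gives each of them a single symbol of the family. The family itself was picked with earlier results of these data known, so its ranks below describe these arrays and test nothing. Gadd45a had 1 probe set among the 6523 of the first array type, and Gadd45b had 1 among the 6534 of the second type, marked MB in the sample titles. Gadd45g was named by 0 probe sets, and 0 probe sets held a Gadd45 symbol among several, so Gadd45g was not analysed here. No protein or activity of the family was measured.

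The cells were NIH3T3, an immortalised mouse fibroblast line, in a stable derivative with wild-type PKR under a tetracycline-repressed promoter. PKR is a protein kinase that double-stranded RNA activates, and its best-known substrate is the alpha subunit of initiation factor eIF2. In the withdrawn condition tetracycline had been absent for 5 h, which the labels describe as switching on PKR overexpression. In the other condition the same line was grown with 1 µg/ml tetracycline and 5% fetal calf serum. The labels give no serum content for the withdrawn cultures, and whether the line is 1 clone is not given in the sources used here. Each condition was hybridised to 1 array of each type, 4 arrays in all. No value therefore has a replicate, a p-value or a replicate error, and the number of arrays limits the precision. Whether the 2 arrays of a condition carry the same RNA is not stated.

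The Gadd45 proteins are small, acidic, mainly nuclear proteins with no known enzymatic activity, and act by binding other proteins. They bind and activate the kinase Map3k4, which feeds into the stress kinases p38 and JNK, and they bind the cyclin-dependent kinase Cdk1, the kinase inhibitor p21 (Cdkn1a) and the replication clamp Pcna. Gadd45a is a classical target of the tumour suppressor p53 and is also induced without p53 by other stresses. Gadd45b was first described as a myeloid differentiation gene (Myd118) and is induced by NF-kB and by TGF-beta. In fibroblasts, as in many cells, the family is known for induction by DNA damage and other stresses.

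Promoter windows of the 2 measured genes are shown because both transcripts were higher after withdrawal, and they give the sequence around each start. They run from 250 bases before to 50 bases after the annotated start, come from RefSeq on build GRCm38.p6, and are printed 5′ to 3′ on the gene's strand. All 3 family members matched the RefSeq promoter table by symbol. The Gadd45a window is chr6:67037358-67037657 on the minus strand, and the Gadd45b window is chr10:80929841-80930140 on the plus strand. Capitals mark CCAAT boxes (CCAAT), TATA boxes (TATAAA) and octamer cores (ATTTGCAT), each searched on both strands. None of these matches overlaps another.

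Gadd45a: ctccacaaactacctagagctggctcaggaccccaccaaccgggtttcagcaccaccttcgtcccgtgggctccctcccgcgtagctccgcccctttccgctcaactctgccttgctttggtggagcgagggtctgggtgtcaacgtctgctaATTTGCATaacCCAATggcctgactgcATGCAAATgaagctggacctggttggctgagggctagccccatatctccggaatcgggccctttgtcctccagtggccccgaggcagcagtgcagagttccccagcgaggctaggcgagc

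Gadd45b: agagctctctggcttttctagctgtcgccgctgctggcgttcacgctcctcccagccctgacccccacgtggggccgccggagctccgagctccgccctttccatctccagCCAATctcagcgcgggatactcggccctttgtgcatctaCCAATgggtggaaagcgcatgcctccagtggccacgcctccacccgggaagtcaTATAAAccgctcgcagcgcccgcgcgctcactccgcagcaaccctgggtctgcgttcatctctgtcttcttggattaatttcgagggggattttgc

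The Gadd45a window held 1 CCAAT box, from base -86 to -82, between 2 octamer cores that start at -97 and -70. The octamer is the sequence that POU-domain factors such as Oct-1 recognise, and it occurred in 1.74% of the 32851 windows of the same length. The Gadd45b window held 2 CCAAT boxes, starting at -139 and -100, and 1 TATA box starting at -46, with no octamer core. CCAAT was present in 37.4% of all windows and TATAAA in 13.6%. The GC box GGGCGG, found in 35.7% of windows, occurred once (1 match) in each. The E-box CACGTG, found in 7.15%, had 1 match in Gadd45b and 0 in Gadd45a.

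Further motifs had 0 matches in both windows. They were the cAMP response element core TGACG (in 20.8% of all windows), the composite TGATGNAA that C/EBP and ATF dimers bind (3.97%), the NF-kB site (8.46%) and the CArG box of serum response factor (1.63%). These are matches of letters only, and a site outside these 300 bases would not be seen. The longest run of bases that both windows hold on the gene strand was 12 bases, cctccagtggcc, starting at base -4 in Gadd45a and at -79 in Gadd45b. On either strand it occurred in 7 of the 32851 windows. Its length was the only criterion by which it was picked.

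Both Gadd45 transcripts read higher on the withdrawn arrays. Gadd45a, on the first array type, read 3678.1 after withdrawal and 775.1 with tetracycline, in the deposited linear intensity units. That is a 4.75-fold difference, or 2.25 as log2 of withdrawn over tetracycline. Gadd45b, on the MB type, read 12825.6 after withdrawal and 3163.1 with tetracycline, 4.05-fold apart, with a log2 change of 2.02. In each gene the withdrawn array was the brighter of its 2 arrays. The arrays are bulk samples, so a higher level per cell and a larger share of cells with the transcript cannot be told apart. Intensities of different probe sets do not compare as abundances, so nothing is read from Gadd45b being the brighter of the 2 genes.

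**Figure D1:**
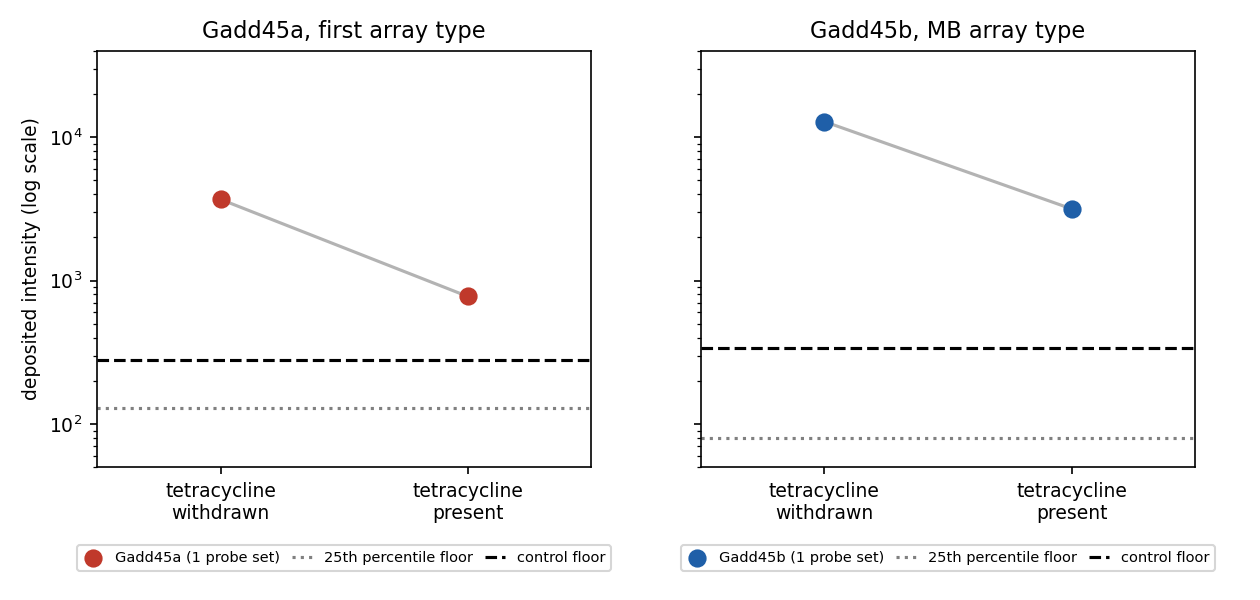
Deposited intensity (log scale) of the Gadd45a probe set on the first array type and of the Gadd45b probe set on the MB type, 1 array per point, with the withdrawn array on the left. Dotted lines are the 25th percentile floors (130 and 80.0) and dashed lines the control floors (281.5 and 340.4). All 4 values lie above both lines.

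The level of each gene was read against 2 floors for the background of its arrays, and all 4 values lay above both. A floor was set for each array type at the 25th percentile of its pooled intensities, which is 130 for the first type and 80.0 for MB. A second, higher floor came from the 39 controls of bacterial and yeast origin, whose RNA mouse cells do not make, and is their 95th percentile, 281.5 and 340.4. Against this control floor Gadd45a stood 13.1 times higher after withdrawal and 2.75 times higher with tetracycline. For Gadd45b these ratios were 37.7 after withdrawal and 9.29 with tetracycline. Single controls read higher than the floor, up to 389.1 (withdrawn) and 447.5 (tetracycline) on the first type. Among the MB arrays the highest control read 1212.8 (withdrawn) and 391.8 (tetracycline). The lower Gadd45a value of 775.1 lay above both maxima of its own array type, and both Gadd45b values lay above those of theirs. Some markers of other cell types read close to 775.1 on that same tetracycline array. The highest were Ptprc of leukocytes (710.1), Myod1 of muscle (694.3) and Krt8 of epithelium (642.3), and other such markers there read lower. How much of the 775.1 is non-specific signal was not tested.

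The place of each gene within its own array changed as well. After withdrawal 92.5% of the probe sets of the first type were dimmer than Gadd45a, against 64.1% with tetracycline. In counts, 485 probe sets were brighter than Gadd45a on the withdrawn array and 2340 on the tetracycline array. For Gadd45b, 97.6% of the MB type were dimmer than it after withdrawal, against 90.4% with tetracycline. The probe sets brighter than Gadd45b numbered 155 on the withdrawn array and 628 on the tetracycline array.

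The size of each change was then read against probe sets of similar level. For each gene these were the 200 probe sets of the same array type nearest in mean log2 intensity. For Gadd45a, whose geometric mean intensity was 1688, the 200 neighbours spanned geometric means of 1565 to 1825. Their median log2 change was -0.018, and the middle 90% of them lay between -0.55 and 0.62. Of the 200, 0 had a higher change than Gadd45a, so it ranked 1 of itself and its neighbours. The highest neighbour was an unnamed probe set with a log2 change of 1.17, followed by Anxa7, a calcium-dependent membrane-binding annexin, at 0.95. Only that unnamed probe set was at least 2-fold higher among the 200 (1), and 0 were 2-fold lower.

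Gadd45b had a geometric mean of 6369, where probe sets are sparser, and its 200 neighbours spanned 4595 to 8807. Their median log2 change was -0.063, and the middle 90% lay between -0.55 and 0.46. Again 0 of the 200 had a higher change. Of its neighbours 2 were at least 2-fold higher, and both were probe sets of Nfkbia, which encodes an inhibitor that holds NF-kB in the cytoplasm, at 1.34 and 1.28. The next was Ext1, an enzyme of heparan sulfate synthesis, at 0.76, and the lowest neighbour was the fatty acid binding protein gene Fabp5 at -0.87.

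**Figure D2:**
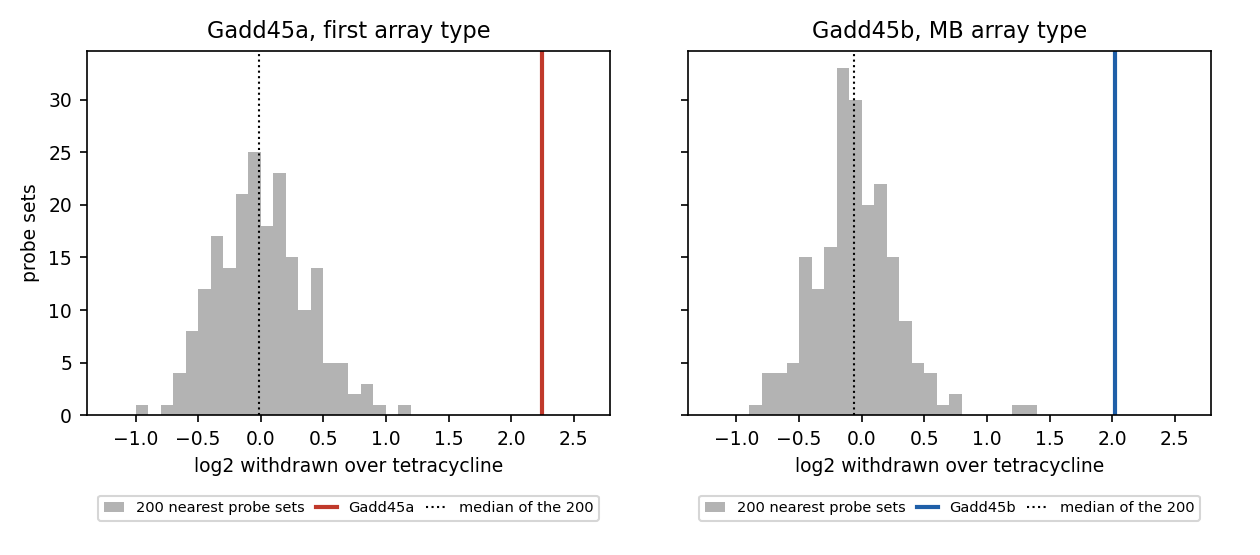
Histograms of log2 withdrawn over tetracycline intensity for the 200 probe sets nearest in level to Gadd45a (left, first array type) and to Gadd45b (right, MB type), in bins of width 0.1, with the gene itself as a coloured line and the median of the 200 as a dotted line. Gadd45a at 2.25 and Gadd45b at 2.02 lie to the right of all their neighbours, whose highest values are 1.17 and 1.34.

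In units of the spread at their level, the 2 genes lay in the other order. The scaled median absolute deviation, a robust SD, of the neighbours' changes was 0.39 for Gadd45a and 0.29 for Gadd45b. Gadd45a lay 5.84 such units above its neighbours' median and Gadd45b 7.28 units above its own. This spread mixes noise with whatever truly differed and does not replace replicates, so the 2 values rank the genes on these arrays and test nothing.

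Both measured members were at least 2-fold higher, at either floor. Across the first array type 4.36% of the 4402 probe sets above the lower floor on both arrays were at least 2-fold higher, and 1.88% of the 3555 above the control floor. Across the MB type these shares were 8.46% of 4360 and 1.97% of 2738. Above the control floor Gadd45a ranked 1 of 3555, with Trib3, a pseudokinase that ATF4 induces, next at 2.11. With no floor Gadd45a ranked 145 of 6523, and at the lower floor 5 of 4402. The 4 probe sets above it there were those of Lclat1 (2.31), Zfp651 (2.30), Slk (2.25) and Ngef (2.25), all of which read under the control floor with tetracycline.

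Gadd45b ranked 3 of 2738 above the control floor. Ahead of it were a probe set without a gene symbol, which read 7867.5 after withdrawal and 1292 with tetracycline (log2 change 2.61), and Klf10, a TGF-beta-inducible Kruppel-like factor gene (2.51). A gap followed, since the next probe set, also unnamed, had 1.63. At the lower floor Gadd45b ranked 75 of 4360, and with no floor 370 of 6534. Split into 4 level bands, the brightest MB band above the control floor, which holds Gadd45b, had 6 of 685 probe sets at least 2-fold higher and 2 at least 4-fold higher, Gadd45b and that unnamed probe set. In the band of the first type that holds Gadd45a, 17 of 889 were at least 2-fold higher and Gadd45a was the 1 at least 4-fold higher. Changes spread more widely among dim probe sets, with a robust SD of 0.51 in the dimmest and 0.29 in the brightest band of the first type, and 0.43 and 0.25 in those of the MB type.

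**Figure D3:**
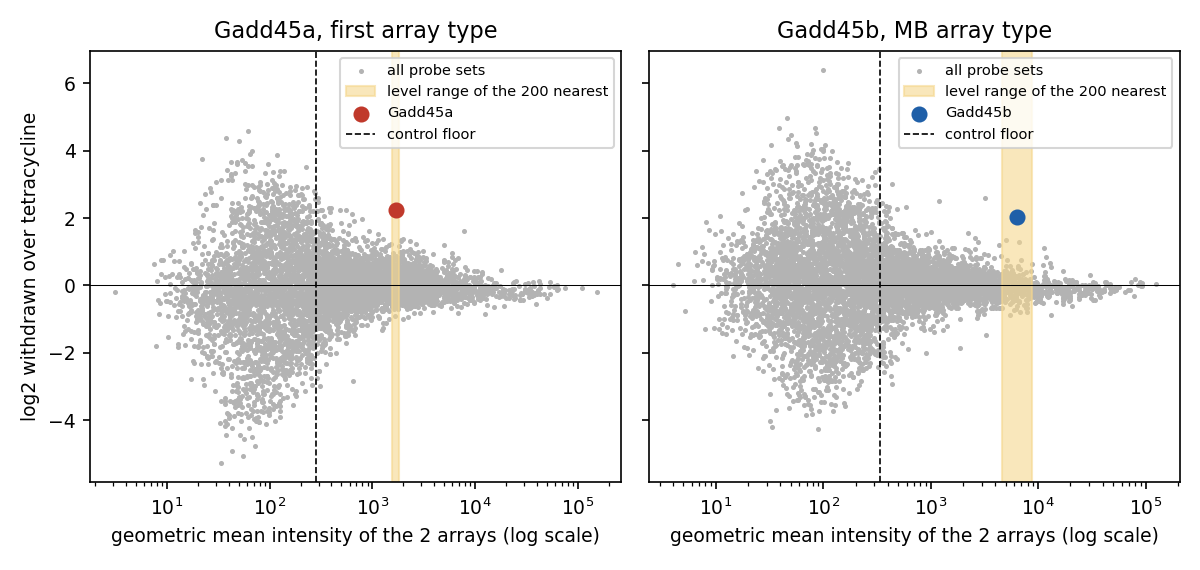
Log2 withdrawn over tetracycline intensity against the geometric mean intensity of the 2 arrays (log scale) for all non-control probe sets (grey), on the first array type with Gadd45a (left) and on the MB type with Gadd45b (right). The yellow band is the level range of the 200 nearest probe sets (1565 to 1825, and 4595 to 8807) and the dashed line the control floor. Changes fan out below that floor, and both genes lie to its right, above the band of their neighbours.

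Each gene rests on 1 probe set, so agreement between probe sets of a gene could be examined only in other genes. Above the control floor the first type had 391 pairs of probe sets that share a gene (310 genes), and their log2 changes lay a median of 0.29 apart, with a 95th percentile of 1.02 and a maximum of 1.79. On the MB type 88 pairs (77 genes) lay a median of 0.25 apart, with a 95th percentile of 0.89 and a maximum of 1.21. In 0 of the 391 and 0 of the 88 pairs was the disagreement as large as the Gadd45a change of 2.25 or the Gadd45b change of 2.02. Few probe sets above the control floor were 2-fold higher (1.88% and 1.97%), so most pairs had little room to disagree that far. Pairs on the same arrays also say nothing of variation between cultures. At the lower floor 8 of 510 pairs and 7 of 165 pairs reached the Gadd45a value, and 11 and 8 the Gadd45b value. Both Gadd45 probe sets were above the control floor on both of their arrays.

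How far a change on 1 array type held on the other could be seen in few genes. Of 171 genes above the control floor on both types, 1 differed between the types by as much as the Gadd45b change, Sod3, the extracellular superoxide dismutase gene (1.78 on the first type, -0.41 on MB). Over these genes the changes on the 2 types correlated weakly (Spearman rho 0.18, a description over genes that share the same 4 arrays). Of the few that were 2-fold higher on 1 type, 1 on the first and 3 on the MB type, 1 of the 4 had the same direction on the other, the AP-1 subunit gene Fosl1 (1.08 and 0.38). Neither Gadd45a nor Gadd45b has a probe set on the other type, so the same comparison was not possible for them. Names of both Gadd45 probe sets end in _s_at, as do those of 55.1% of the first and 56.4% of the MB probe sets. In the Affymetrix scheme this suffix marks sets whose probes may be shared by similar transcripts.

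The genes most like each Gadd45 gene over its 2 arrays were taken as the 3 nearest named probe sets in the plane of the 2 log2 intensities. Nearest to Gadd45a were the scaffold gene Sash1 (distance 0.68, log2 change 1.35), the splicing regulator gene Rbm39 (0.69, 1.33) and Relb, an NF-kB subunit gene (0.70, 1.36). Both other probe sets of Rbm39 had smaller changes, 0.29 and 0.20. Sash1 and Relb have no second probe set. Nearest to Gadd45b were the 2 probe sets of Nfkbia (distances 0.53 and 0.68) and that of Ext1 (distance 1.00). With 2 arrays this likeness is a similar level and a similar difference and no more. Each of these genes had a smaller change than the Gadd45 gene it was matched to, which the ranks given above made nearly certain.

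Other genes that belong with the family were examined in 7 lists, with each gene at the median change of its probe sets above the floor. Where a gene had probe sets on both array types, as Cdkn1a, Aurka and Mdm2 did, this median pools the 2 types. Across all named genes 5.26% of 4507 were at least 2-fold higher and 4.22% 2-fold lower at the lower floor, and 2.07% and 1.2% of 3582 at the control floor. The median change of all these genes was -0.0037 and -0.0066 at the 2 floors, with 49.6% and 49.2% of them higher to any extent. List counts are at the lower floor unless the control floor is named.

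Of the transcriptional regulators of Gadd45 genes, 18 of 27 were measured, 16 of them higher after withdrawal to any extent and 2 lower. The list median was 0.41 at either floor. At least 2-fold higher were 4, and 0 were 2-fold lower. Above the control floor these were 3 of 16: the NF-kB subunit gene Relb, the zinc finger factor gene Egr1, which read 3665 after withdrawal and 1475.5 with tetracycline (log2 change 1.31), and the stress factor gene Atf3, with 743.1 after withdrawal and 368.4 with tetracycline (1.01). The fourth, the TGF-beta mediator gene Smad3, read 395.7 after withdrawal and 159.7 with tetracycline, where it was under the control floor. Factors that bind CCAAT had small changes, with 0.086 for Nfya, -0.10 for Nfyb and 0.34 for Nfyc (chosen for this role after their values were seen). The p53 gene Trp53 had no probe set with its single symbol.

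Of 26 listed binding partners of the Gadd45 proteins, 14 were measured, 8 higher and 6 lower, with a median of 0.19. At least 2-fold apart were 0 of the 14, near the low shares of all genes given above, so this count says nothing particular about the partners. The nuclear receptor genes Pparg, with 85.7 after withdrawal and 20.4 with tetracycline, and Esr1, with 112.3 after withdrawal and 46.5 with tetracycline, were not above the lower floor on both arrays and were not counted. Named by the rule for lists without a 2-fold member were the nuclear receptor gene Rxra (0.69), the repair endonuclease gene Ercc5 (0.44) and Pcna, which read 3109.3 after withdrawal and 3908.9 with tetracycline (-0.33). The kinase that Gadd45 proteins activate, Map3k4, read 358.1 after withdrawal and 383.7 with tetracycline (-0.10). Cdk1 read 6442.5 after withdrawal and 5585 with tetracycline (0.21). Both Cdkn1a probe sets were slightly higher, by 0.10 (first type) and 0.41 (MB type). Map3k4, Cdk1 and Cdkn1a were chosen for their role after their values were seen.

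In the p38 and JNK cascade 12 of 24 genes were measured, 8 higher and 4 lower, with a median of 0.35. The 2 that were at least 2-fold higher were Dusp16, a phosphatase that inactivates JNK and p38, which read 2055.7 after withdrawal and 790.5 with tetracycline (1.38), and the JNK scaffold gene Mapk8ip1 (1.11). Mapk8ip1 was under the control floor with tetracycline. Just under 2-fold was the AP-1 gene Jun, with 1621.8 after withdrawal and 819.8 with tetracycline (0.98). The p38 alpha gene Mapk14 had 0.35 and the upstream kinase gene Map2k3 0.42. Jun, Mapk14 and Map2k3 were chosen after their values were seen.

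Of 30 other p53 targets 9 were measured, with 4 higher, 5 lower and 0 at least 2-fold apart. The list median was -0.18, and 0.26 over the 7 genes above the control floor, so its sign depends on the floor. Above the control floor the highest changes belonged to Mdm2, the ubiquitin ligase that degrades p53 (0.97 and 0.72 on the first type, 0.34 on MB), and to the antiproliferative gene Btg2 (0.72). The cyclin G1 gene Ccng1 was the lowest above the control floor, with 813.1 after withdrawal and 1056.2 with tetracycline (-0.38). The 2 genes measured at the lower floor alone were both lower, the DNA damage recognition gene Xpc (-0.71) and the death receptor gene Fas (-0.57 and -0.80 on its 2 probe sets), and were named after their values were seen.

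Among the 7 lists, which were chosen with earlier results of these data known, the highest median was 0.93. It belonged to the list of other GADD and DNA damage-inducible transcripts, and this order tests nothing. All 11 of its genes with a probe set, of 14 listed names, were above the control floor. The names include Myd116, an older name of Ppp1r15a, so 1 gene was listed under 2 names. Of these 10 were higher, 5 by at least 2-fold, and 1 was lower. The 5 were Trib3, Ppp1r15a, which encodes GADD34, the regulatory subunit of an eIF2 alpha phosphatase (3786.4 after withdrawal and 1293.3 with tetracycline, 1.55), the AP-1 gene Junb (1.52), Egr1 and Atf3. Egr1 and Atf3 also stand in the regulator list. The heme oxygenase gene Hmox1 was the lower one (-0.76). Ddit3, known as GADD153 or CHOP and chosen after its values were seen, was at 0.93. Of the 5, Trib3, Junb, Egr1 and Atf3 carry no GADD name. The list is mixed and also holds the adaptor gene Myd88 (0.70), named after its values were seen. Whether each member is induced by DNA damage was not checked, so the 10 are not a count of damage-inducible genes. Ppp1r15b (0.56) and Ddit4 (0.39), also chosen after their values were seen, were under 2-fold.

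The list of growth arrest-specific genes, most of them named for their expression in arrested fibroblasts, was split. Of 12 listed, 8 were measured, with 4 higher and 4 lower and a median of -0.085 (-0.26 over the 7 above the control floor). The lower genes include Cavin3 (-0.26) and Pdgfra (-0.43), which do not carry that name and were named here after their values were seen. The median over the 7 is the Cavin3 value, so the split depends on these additions to the list. At least 2-fold lower was 1, Gas1, a membrane protein gene whose product blocks entry into S phase, with 1964 after withdrawal and 5407.3 with tetracycline (-1.46). The highest was the snoRNA host Gas5, chosen after its values were seen, at 0.60 and 0.66 on its 2 probe sets. Among 8 inhibitors of cyclin-dependent kinases 5 were measured, 3 higher and 2 lower, with a median of 0.20. The highest and lowest above the control floor were Cdkn2d (0.31) and Cdkn1b (-0.19), and 0 were 2-fold apart.

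**Figure D4:**
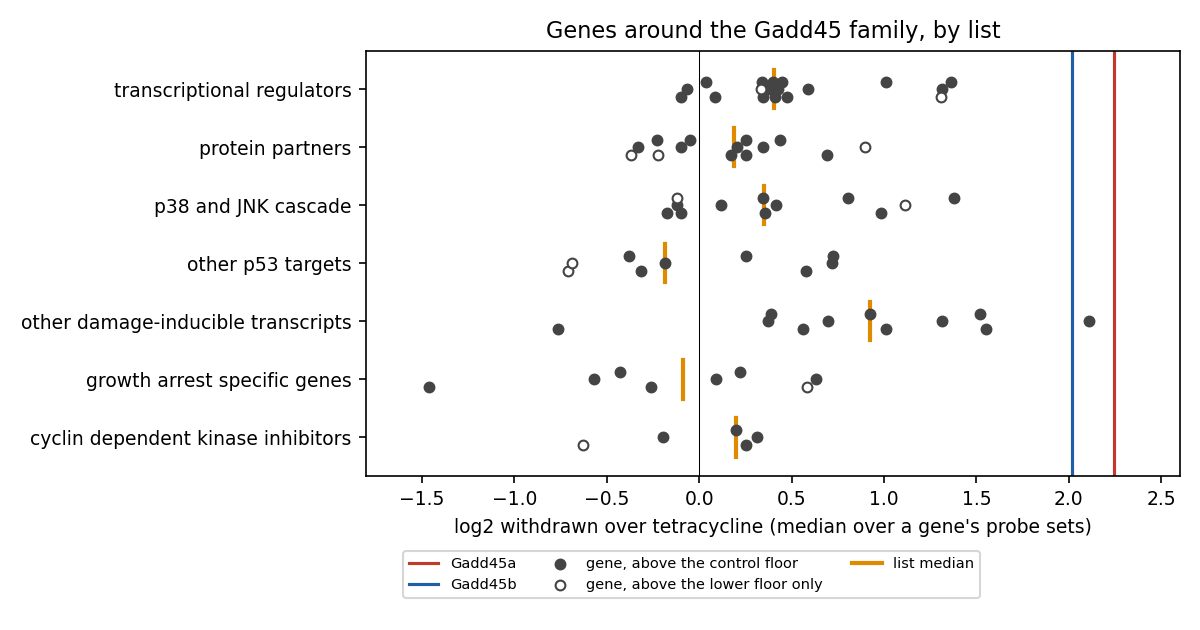
Log2 withdrawn over tetracycline intensity of the measured genes of each list, 1 point per gene (the median over its probe sets above the lower floor), filled where the gene is also above the control floor, with the list median as an orange bar. Points are spread vertically within a row for legibility. Vertical lines mark Gadd45a at 2.25 and Gadd45b at 2.02, and no measured gene of the lists other than Trib3, at 2.11, lies beyond the Gadd45b line.

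The gene that the cells were built to overexpress was checked on its own probe set. Eif2ak2, which encodes PKR, read 663.6 after withdrawal and 643.3 with tetracycline, a log2 change of 0.045. The species of the transgene is not given in the labels, and a mouse probe set need not detect it, so this neither checks the labels nor measures the induction that goes with the Gadd45 values. Of 13 fibroblast markers 12 were above the control floor on both arrays of a type, and Lum was the exception. Of the markers of other cell types, 3 of 7 for leukocytes (1 of which has no probe set), 1 of 4 for epithelium, 0 of 4 for endothelium and 2 of 4 for muscle were above it. The summed intensity of the leukocyte markers was 1295 after withdrawal and 1464 with tetracycline on the first type. For the MB arrays it was 3678 after withdrawal and 3322 with tetracycline, of which Cd14 gave 3425.7 after withdrawal and 3222.2 with tetracycline. The fibroblast marker sum was lower after withdrawal on both types, 60050 after withdrawal and 74494 with tetracycline on the first, and 155639 after withdrawal and 191130 with tetracycline on MB. Epithelial markers on MB summed to 401.3 after withdrawal and 229.3 with tetracycline, and endothelial ones to 539.1 after withdrawal and 847.1 with tetracycline. Each probe set in these MB sums was under the control floor on at least 1 array. Cdh1 (270.5 after withdrawal, 50.4 with tetracycline) and Tie1 (122.4 and 547.8) set their directions, while Krt8 and Kdr went the other way. Muscle markers, all on the first type, summed to 1459 after withdrawal and 1823 with tetracycline, and on that type the epithelial sum was 635.6 after withdrawal and 782.1 with tetracycline and the endothelial sum 165.7 after withdrawal and 187.1 with tetracycline. The part of these marker levels in the Gadd45 values was not tested. RNA integrity, read as the 3'/5' ratio of the beta-actin controls, was 0.96 after withdrawal and 1.05 with tetracycline on the Gadd45a arrays. On the Gadd45b arrays it was 0.97 after withdrawal and 0.93 with tetracycline. The same ratio of the Gapdh controls lay in the opposite order on both types, at 0.78 after withdrawal and 0.71 with tetracycline on the Gadd45a arrays, and 0.79 after withdrawal and 0.83 with tetracycline on those of Gadd45b.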

How the data were processed

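Total RNA of 4 samples was measured on 2 array types, with 1 array per condition and type. Deposited values are linear intensities, 1 for each probe set, and how the authors made these intensities is not given in the sources used here. The 2% trimmed means of the 2 arrays of a type differed by under 5% (0.042% and 0.067%), so the deposited intensities were used unscaled. Control probe sets (61 per type) were left out. Symbols came from the platform annotation, updated through Entrez identifiers. Exactly 1 symbol was given for 5541 probe sets of the first type (197 had several, 785 none) and for 2001 of the MB type (27 had several, 4506 none). Of those, 5532 and 1993 matched the RefSeq genes of GRCm38.p6.

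The change is log2 of withdrawn over tetracycline intensity, with no pseudocount. A gene or probe set was counted at 2-fold where it lay above a floor on both arrays. No p-value was computed. The naming rule covered the family, the 3 nearest named probe sets to each member, Eif2ak2, and, per list, the members 2-fold apart above the control floor or else the 2 highest and the lowest. The members and the 7 lists were chosen with earlier results of these data known. Alternatives were 4 scalings, a pseudocount of 100, other neighbour sets, floors and fold limits, and the brightest probe set per gene. The tools were pandas 2.3.3 and numpy 2.4.6 under Python 3.11.15, with matplotlib 3.10.9, statsmodels 0.14.6 and scipy 1.17.1.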

Additional observations from a re-analysis of the deposited data

How the results depend on the processing

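The Gadd45a change kept its direction and size under 4 scalings and a pseudocount of 100 (2.11 to 2.26 on the log2 scale), and so did Gadd45b (1.99 to 2.08). The share of similar-level probe sets with a higher change stayed at 0% for Gadd45a under 8 alternatives, and for Gadd45b it was 0% except among the 500 nearest (0.2%, 1 unnamed probe set). Counts of all probe sets moved by more than 1.5 times, as other floors and limits admit other probe sets. On the first type, 192 higher and 177 lower became 67 and 46 at the control floor, 545 and 471 at 1.5-fold, and 46 and 29 at 3-fold. On the MB type, 369 higher and 290 lower became 54 and 21, 769 and 561, and 136 and 122 under the same settings. The median of the p53 list, -0.18, turned to 0.26 at the control floor, where 2 fewer genes are measured. That of the kinase inhibitor list, 0.20, became 0.12 with quantile normalization, chosen after seeing the data; the cause was not tested. The growth arrest list median, -0.085, became -0.26 at the control floor and -0.13 with quantile normalization. Apart from the p53 list at the control floor, the list medians kept their direction under the alternatives run. No paired analysis was possible because each condition has 1 array per type. With 1 array each, no setting stands in for a replicate, and signal over background limits the ranks of dim probe sets.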
